A study of Mus musculus with 32 samples.

Results

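Type I interferon-stimulated genes were followed through 8 groups of mouse lung libraries. The group consists of 31 genes taken by symbol from a named list, with no threshold on their values, out of 35275 genes in the count table. All 31 were found in the counts and in the deposited TPM values, and all 31 passed the low-count filter in both experiments. Lungs came from C57B/6 mice, and polyA RNA of the whole tissue was sequenced in 32 libraries. The first experiment held 4 groups without surgery, each labelled 5 months: male mice in room air (3 libraries), male mice in cigarette smoke (5), female mice in room air (3) and female mice in cigarette smoke (5). The second held female mice only, all exposed to cigarette smoke after ovariectomy, the removal of the ovaries, or after sham surgery. Its groups were sham surgery with 3 months of smoke (3 libraries), ovariectomy with 3 months (3), sham surgery with 5 months (5) and ovariectomy with 5 months (5), so it has no air control. The labels give no age, smoke dose or interval between surgery and exposure, and do not say whether each library was 1 mouse. If libraries of a group did not come from separate animals, p-values measure technical spread only.

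Type I interferons bind the receptor formed by Ifnar1 and Ifnar2, and the kinases Jak1 and Tyk2 then activate a complex that contains Stat2 and Irf9. The complex enters the nucleus and binds a short element in the promoters of interferon-stimulated genes. Their products sense viral RNA or DNA, block translation, degrade RNA, tag proteins with Isg15 or damp the response, and in the lung they are best known from respiratory virus infection. In whole lung, more cells of a type and more RNA per cell cannot be told apart.

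Library depth ran from 13790052 to 24497332 counts. No library disagreed with its labelled sex by Xist and Ddx3y. The 6 alveolar epithelium markers summed to at least 32000 CPM (counts scaled to the library total) in every library, and none was at 0 in any group. Liver-expressed Alb stood above 100 CPM in 7 libraries: male air 1, female air 2, ovariectomy 3 months 2 and 3, sham 5 months 1 and 2, and ovariectomy 5 months 5. Counts of called members are therefore also given without these libraries where they change. In the second experiment the libraries of each exposure time carry their own title prefix, so time and library series cannot be told apart. Title numbers also run in separate blocks for air and smoke, and for sham surgery and ovariectomy at each time. Whether these blocks were handled apart is not given in the labels, and their part in the differences was not tested.

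On the TPM scale, which adjusts counts for gene length and library size, the members spanned a wide range in lung. Bst2, the membrane protein tetherin that holds budding virions at the cell surface, had the highest median over all 32 libraries, 209 TPM (range 160 to 349). Ifit3, a partner of Ifit1 in binding viral RNA, followed at 121 TPM (75.9 to 173), and the RNA exonuclease Isg20 at 77.8 TPM (58.3 to 152). Reads of Ifit3 may be shared with its near-identical copy Ifit3b, so its level is uncertain.

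The lowest medians belonged to the dynamin-like GTPases Mx2, at 1.6 TPM, and Mx1, at 1.89 TPM, whose reads can be shared between them. Rsad2, the radical-SAM enzyme viperin, had a median of 3.92 TPM but the widest spread, with its highest library 17.1 times its lowest in CPM. At the other end, Parp14, Parp9 and Ddx58 differed by only 1.43, 1.53 and 1.54 times between their highest and lowest libraries. Antiviral effectors such as Bst2 and Rsad2 lay far apart on this range. The 2 GTPases were both at its bottom. The transcription factors Irf7, Stat2 and Irf9 had medians of 16.9, 22.6 and 29.3 TPM. The plot of TPM shows each member.

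**Figure D1:**
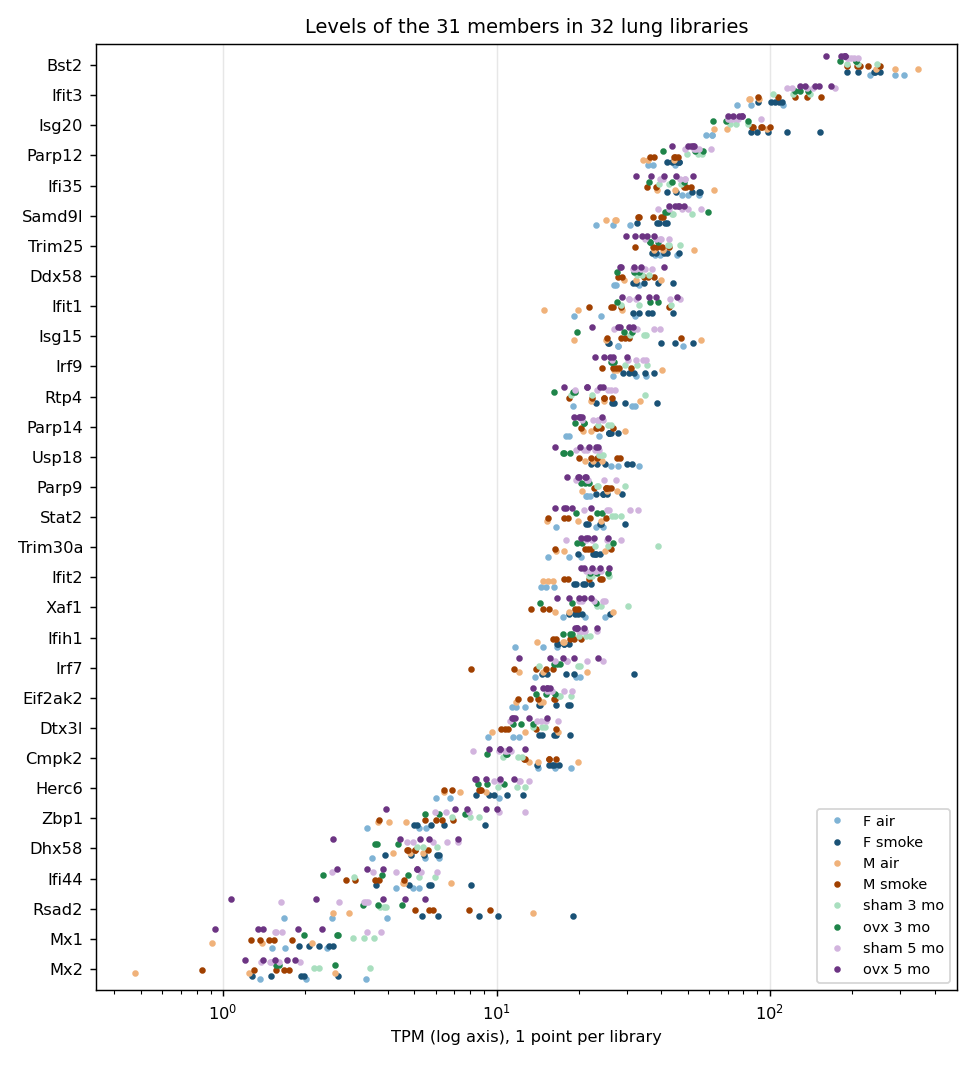
TPM of each of the 31 members on a log axis, 1 point per library, coloured by group and ordered by the median over 32 libraries. Bst2 and Ifit3 stand highest and Mx1 and Mx2 lowest, and Rsad2 has the widest scatter of points.

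Several members are neighbours in the genome, by the gene coordinates deposited with the counts (GRCm38). Ifit2, Ifit3 and Ifit1 lie in that order on the plus strand of chromosome 19, with gaps of 7111 and 52139 bases. Rsad2 and Cmpk2 lie 12751 bases apart on chromosome 12. Parp14, Dtx3l and Parp9 lie together on chromosome 16, where Dtx3l and Parp9 overlap by 682 bases on opposite strands. Parp9 also overlaps the antisense gene Gm15564 by 5854 bases, Dhx58 overlaps Dhx58os by 2637 bases, Ifi35 overlaps Gm11626 by 815 bases and Eif2ak2 overlaps Gm26637 by 532 bases. Irf7 overlaps Phrf1 by 45 bases on the opposite strand. Irf9 overlaps Rnf31 by 123 bases on the same strand, which counting by strand would not resolve. Whether strand was used in counting is not given in the sources used here, so values of these overlapping genes are uncertain.

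Promoter sequences show which members carry the letters of the element that this complex binds. RefSeq promoters (GRCm38.p6, 250 bases before to 50 after the gene start) were matched for 23 of the 31 members. The interferon response element core, taken as GAAA, any 2 bases and GAAA and searched on both strands, was in 10 of these 23, against 3.99% of all genes with a promoter of that length. The 10 were Bst2, Ddx58, Eif2ak2, Ifih1, Ifit1, Ifit3, Isg15, Rsad2, Stat2 and Trim30a. In Ddx58, Eif2ak2 and Ifih1 the only match lay after the gene start. Matches can overlap each other, and a match is a description of the sequence only.

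The stretches below are those of members whose values the later comparisons turn on, and of Ifit1 and Isg15 as textbook cases. Each is read 5′ to 3′ on the strand of its gene. Capitals mark bases covered by a match, and the core on the other strand reads TTTC, any 2 bases and TTTC.
Ifit1 (chr19:34640765-34640833, plus strand): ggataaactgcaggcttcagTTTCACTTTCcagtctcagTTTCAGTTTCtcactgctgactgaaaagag
Isg15 (chr4:156200855-156200916, minus strand): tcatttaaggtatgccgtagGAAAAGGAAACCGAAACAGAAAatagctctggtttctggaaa
Rsad2 (chr12:26456543-26456592, minus strand): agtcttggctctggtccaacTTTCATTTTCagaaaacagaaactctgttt
Ifit3 (chr19:34583353-34583436, plus strand): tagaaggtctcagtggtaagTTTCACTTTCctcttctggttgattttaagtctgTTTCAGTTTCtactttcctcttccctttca
Bst2 (chr8:71537567-71537622, minus strand): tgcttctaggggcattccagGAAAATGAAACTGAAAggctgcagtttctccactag
Stat2 (chr10:128270256-128270305, plus strand): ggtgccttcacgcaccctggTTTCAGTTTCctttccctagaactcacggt
Ifit1 and Ifit3 each held separate matches on the opposite strand, whereas in Isg15 and Bst2 overlapping matches ran into 1 block. Samd9l and Isg20, which shared the smallest adjusted p-value of the members for smoke in females, had no match in this window. Samd9l also had the smallest in males. Ifit2 and Dtx3l, called with smoke as well, had no match either, and Parp14 had no promoter to search.

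The mean log2 CPM over all 31 members gives the level of the set in each library. It was 4.70 ± 0.18 (SD, n = 3) in female air, 4.91 ± 0.12 (n = 5) in female smoke, 4.64 ± 0.21 (n = 3) in male air and 4.73 ± 0.11 (n = 5) in male smoke. Air and smoke libraries overlapped in both sexes, because the third air library of each sex stood well above the other two. In females the air libraries read 4.53, 4.67 and 4.88, and in males 4.53, 4.52 and 4.88.

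In the surgery experiment the means were 4.81 ± 0.11 (SD, n = 3) for sham and 4.63 ± 0.02 (n = 3) for ovariectomy at 3 months, and 4.75 ± 0.12 and 4.70 ± 0.14 (n = 5 each) at 5 months. At 3 months the sham libraries, 4.74 to 4.94, lay above all ovariectomy libraries, 4.61 to 4.65. At 5 months the groups overlapped over most of their range.

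**Figure D2:**
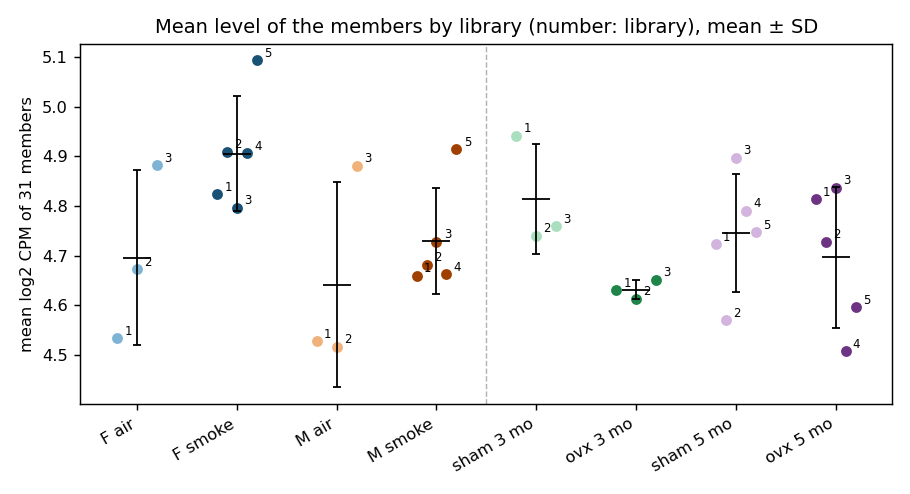
Mean log2 CPM of the 31 members in each library (points, numbered by library), with the group mean and SD in black; the dashed line separates the experiments. Air library 3 of each sex stands at 4.88, within the range of the smoke groups, and female smoke library 5 is highest at 5.09.

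Smoke against air in females raised 6 of 31 members and lowered none. The 6 were Samd9l, Isg20, Parp14, Ifit2, Eif2ak2 and Dtx3l, with rises of 1.27- to 1.72-fold, and they include RNA-binding or degrading effectors and ADP-ribosylation genes. By the same test, edgeR's quasi-likelihood test with Benjamini-Hochberg adjustment over 16361 genes at adjusted p under 0.05, 4.52% of all genes rose and 3.18% fell. The median log2 fold change of the members was 0.17 against -0.01 for all genes, and 24 of 31 were positive against 47.9% of all genes. In 8 members every smoke library exceeded every air library, against 7.76% of all genes.

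Samd9l, an antiviral restriction factor, stood at 71.7, 74.8 and 64.5 CPM in female air and at 107, 101, 82, 94.6 and 109 CPM in female smoke. The groups did not overlap. The log2 fold change was 0.50 (SE 0.10, adjusted p = 0.00329).

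Isg20 read 32.1, 30.4 and 35.1 CPM in female air. In female smoke it read 51, 60.4, 43.4, 76.2 and 48.2 CPM, all above the air libraries, with library 4 highest. Its log2 fold change, 0.79 (SE 0.15, adjusted p = 0.00329), was the highest among the 6.

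Ifit2, which binds AU-rich viral RNA, was tight in female air, at 29.2, 28.4 and 29.1 CPM. The smoke libraries, at 37.8, 38.8, 34.4, 39 and 37 CPM, lay above it without overlap. The log2 fold change was 0.38 (SE 0.10, adjusted p = 0.0227). Eif2ak2, the kinase PKR that stops translation on double-stranded RNA, read 25.7, 25 and 25.9 CPM in air and 38.1, 29.8, 29.2, 32.7 and 38.8 CPM in smoke. These groups were also apart, and the log2 fold change was 0.41 (SE 0.11, adjusted p = 0.025).

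Parp14, a mono-ADP-ribosyltransferase, read 69.4, 80.4 and 70 CPM in female air and 90.7, 93.4, 97.2, 88.2 and 94.4 CPM in smoke. Every smoke library was above air, and the log2 fold change was 0.35 (SE 0.08, adjusted p = 0.0133). Dtx3l, the ubiquitin ligase that pairs with Parp9, read 30.9, 29.2 and 25.9 CPM in air against 40.9, 37.7, 41.3, 45.4 and 37.5 CPM in smoke. Its groups were likewise apart, with a log2 fold change of 0.51 (SE 0.14, adjusted p = 0.0269). Parp9 and Parp12 of the same role were not called.

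Rsad2 had the highest fitted change of any member in females but was not called by the test used here. It was called in 2 of 10 alternatives, by DESeq2 and in a fit of all 32 libraries together. It read 3.54, 4.81 and 8.73 CPM in air and 17.3, 20.5, 12, 36.9 and 11.1 CPM in smoke. The groups did not overlap, but smoke library 4 stood far above library 5. The log2 fold change was 1.80 (SE 0.59, adjusted p = 0.0934). Bst2 went the other way, from 90, 100 and 124 CPM in air to 76.5, 93.2, 86.5, 67.6 and 91.5 CPM in smoke, with overlap at air library 1 (log2 fold change -0.32, SE 0.12, adjusted p = 0.103).

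Other familiar interferon-stimulated genes were not called in females. Isg15, the ubiquitin-like modifier, averaged 13.1 ± 5.21 CPM (SD, n = 3) in air and 13.6 ± 4.22 CPM (n = 5) in smoke. Ifit1, which binds uncapped or unmethylated RNA ends, averaged 33.2 ± 10.1 and 45.9 ± 5.54 CPM. Both had an air library, number 3 (19.1 and 44.7 CPM), within the range of the smoke libraries. Irf7, the transcription factor that amplifies interferon production, averaged 19.8 ± 4.06 and 21.3 ± 8.15 CPM. Usp18, which removes Isg15 and damps receptor signalling, averaged 25.6 ± 4.53 and 22.3 ± 3.8 CPM, and Mx1 averaged 3.17 ± 1 and 3.61 ± 0.45 CPM. Stat2 averaged 46.5 ± 8.54 and 50.6 ± 8.11 CPM. In all of these the air and smoke libraries overlapped.

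By role, 3 of 5 RNA-binding or degrading effectors and 2 of 4 ADP-ribosylation genes rose in females, with Samd9l the remaining rise among 7 other antiviral effectors. None of 4 sensors, 3 transcription factors, 4 genes of the Isg15 system, 2 GTPases or 2 modulators was called. The count of called members moved from 6 to 2 without female air library 3, and to 3 without female air library 1 or 2, and it was 4 without the Alb-rich libraries. Samd9l and Isg20 were called in each of the 8 fits that left out 1 library, and the other 4 were each lost in at least 2 of them.

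Smoke against air in males raised 3 of 31 members, Samd9l, Ifit2 and Ifit3, and lowered 1, Bst2. Over all genes 4.93% rose and 5.33% fell. The members' median log2 fold change was 0.07 against 0.01 for all genes, and 20 of 31 were positive against 51.3%. Without the Alb-rich libraries the members' median was -0.04 in males and 0.12 in females. In 3 members the smoke libraries all lay above the air libraries, against 8.43% of all genes.

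Samd9l read 72.9, 64.6 and 64.9 CPM in male air and 99.7, 82.3, 93.7, 92.7 and 109 CPM in male smoke. The groups were apart, and the log2 fold change was 0.51 (SE 0.10, adjusted p = 0.00207). Ifit2 read 28.4, 28.5 and 27.4 CPM in air and 43.4, 32.7, 39.1, 35.1 and 46.4 CPM in smoke. Its smoke libraries spread more than in females but all lay above air, with a log2 fold change of 0.49 (SE 0.10, adjusted p = 0.00318).

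Ifit3 read 79.9, 71 and 65.4 CPM in male air and 112, 87.8, 101, 82.4 and 136 CPM in male smoke. The groups did not overlap, and the log2 fold change was 0.53 (SE 0.16, adjusted p = 0.0479). Bst2 read 110, 90.2 and 119 CPM in air and 76.5, 90.7, 74.5, 76.3 and 88.5 CPM in smoke. Smoke library 2 reached just above air library 2, and the log2 fold change was -0.38 (SE 0.12, adjusted p = 0.0423).

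Among the remaining members in males, Ifit1 averaged 26.5 ± 7.11 CPM (SD, n = 3) in air and 37.8 ± 11.1 CPM (n = 5) in smoke. Isg15 averaged 11.8 ± 6.26 and 11.9 ± 3.45 CPM, Irf7 17.1 ± 4.18 and 14.2 ± 3.66 CPM, and Usp18 19.1 ± 1.03 and 21.1 ± 4.19 CPM. Mx1 averaged 2.34 ± 0.846 and 2.46 ± 0.422 CPM, and Stat2 41.1 ± 6.86 and 41.9 ± 6.72 CPM. None of these was called and their groups overlapped. The count fell from 4 to 2 without the Alb-rich libraries, and to 2 as well when any 1 of male air libraries 1 and 3 or male smoke libraries 1 and 3 was left out. Samd9l and Ifit2 were called in all 8 fits that left out 1 library, while Ifit3 and Bst2 were called in 2 and 3 of them.

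**Figure D3:**
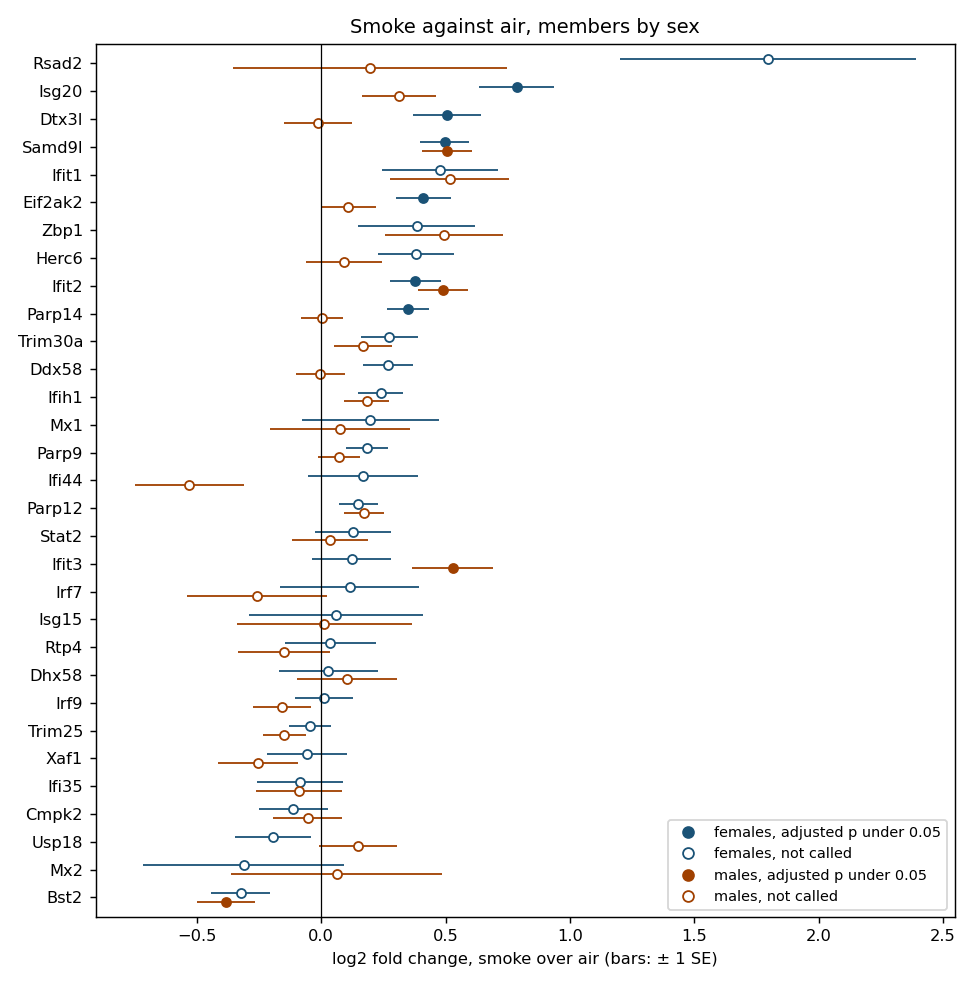
Log2 fold change of smoke over air for each member, in females (blue) and males (orange), with bars of 1 SE; filled points have an adjusted p under 0.05. Samd9l and Ifit2 are filled in both sexes, and Rsad2 has the widest bars.

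The response to smoke was not shown to differ between the sexes for any member. In the sex by smoke interaction 0 of 31 members were called by edgeR, by DESeq2 or by limma. EdgeR called 0.00611% of all genes. By edgeR, 4 members had an unadjusted p under 0.05, all with a higher response in females, against 3.05% of all genes in that direction. For Samd9l the difference, female minus male response, was -0.01 (SE 0.14, adjusted p = 0.998), and for Ifit2 -0.11 (SE 0.14, adjusted p = 0.97).

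Isg20, called only in females, read 34, 36.6 and 47.2 CPM in male air and 44, 51.2, 47.2, 53.2 and 47.3 CPM in male smoke, with male air library 3 level with the smoke libraries. The male log2 fold change was 0.31 (SE 0.15, adjusted p = 0.214) and the interaction 0.47 (SE 0.21, adjusted p = 0.854). For Parp14 male air read 77.4, 79.5 and 97.7 CPM and male smoke 81.2, 84.2, 92.8, 79.1 and 86.7 CPM, so air library 3 was highest of all. Its male log2 fold change was 0.0037 (SE 0.08, adjusted p = 0.987), with an interaction of 0.34 (SE 0.12, adjusted p = 0.752).

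Dtx3l read 25.7, 32.6 and 39.6 CPM in male air and 34.7, 26.9, 41.2, 30.5 and 28 CPM in male smoke, fully overlapping. The male log2 fold change was -0.01 (SE 0.14, adjusted p = 0.973) and the interaction 0.52 (SE 0.19, adjusted p = 0.784). Eif2ak2 had a male log2 fold change of 0.11 (SE 0.11, adjusted p = 0.615) and an interaction of 0.30 (SE 0.16, adjusted p = 0.854).

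Rsad2 read 5.33, 5.83 and 25.2 CPM in male air and 15.6, 9.93, 11.5, 12.4 and 20.1 CPM in male smoke. Male air library 3 was above every male smoke library. The male log2 fold change was 0.20 (SE 0.55, adjusted p = 0.885); it was 1.31 without that library and -0.19 and -0.17 without male air library 1 or 2. The interaction was 1.60 (SE 0.79, adjusted p = 0.854). Ifit3, called only in males, had a female log2 fold change of 0.12 (SE 0.16, adjusted p = 0.722) and an interaction of -0.40 (SE 0.22, adjusted p = 0.871). For Bst2 the interaction was 0.06 (SE 0.17, adjusted p = 0.989).

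Female and male lungs were also compared directly. In smoke, 0 of 31 members were called by edgeR, DESeq2 or limma, against 0.189% of all genes by edgeR. In that fit 7 members had an unadjusted p under 0.05, all higher in females, against 3.45% of all genes. The members' median log2 difference, female over male, was 0.13 against -0.01 for all genes, and 27 of 31 were positive against 48.8% of all genes. Mx1 alone had groups that did not overlap, at 3.63, 3.1, 4.01, 3.21 and 4.08 CPM in females and 2.01, 2.35, 2.17, 2.72 and 3.05 CPM in males, and 0.587% of all genes lay apart in that direction. In air, 0 of 31 were called by edgeR, DESeq2 or limma, against 0.177% of all genes by edgeR. There 1 member was higher and 1 lower at an unadjusted p under 0.05, against 4.04% and 5.23% of all genes, and 19 of 31 were positive against 51.4%.

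Ovariectomy against sham surgery after 5 months of smoke lowered 1 of 31 members, Stat2, and raised none. Over 16874 genes, 0.776% fell and 0.587% rose by the same test. The members' median log2 fold change was -0.06 against -0.01 for all genes. Stat2, which supplies the transactivation domain of the interferon-activated complex, read 60.3, 42.7, 63.2, 51 and 51.1 CPM after sham surgery. After ovariectomy it read 37.4, 39.8, 46.5, 34.1 and 38 CPM, and only ovariectomy library 3 reached into the sham range, above sham library 2. The log2 fold change was -0.47 (SE 0.10, adjusted p = 0.0179). The call was lost without sham library 1 (adjusted p = 0.0661), sham library 3 (0.0518) or ovariectomy library 1 (0.0535).

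At 3 months of smoke Stat2 read 51.8, 55.1 and 53.1 CPM after sham surgery and 47.2, 41 and 46.5 CPM after ovariectomy. These groups did not overlap, but the log2 fold change, -0.25 (SE 0.12, adjusted p = 0.554), was not called. The difference between the effects at 5 and at 3 months was -0.23 (SE 0.16, adjusted p = 0.938).

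Ovariectomy against sham surgery at 3 months called 0 of 31 members by edgeR, DESeq2 or limma, and edgeR called 0% of all genes. At an unadjusted p under 0.05, 6 members were lower, against 4.26% of all genes, and 0 higher. The median log2 fold change was -0.19 against 0.00 for all genes, and 25 of 31 were negative against 49.4% of all genes. In 9 members all 3 ovariectomy libraries lay below all 3 sham libraries, against 7.98% of all genes: Mx1, Irf9, Usp18, Stat2, Dhx58, Xaf1, Parp14, Trim25 and Eif2ak2.

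Usp18 read 19, 19.1 and 18.6 CPM after sham surgery and 13.9, 14.8 and 14.8 CPM after ovariectomy at 3 months. At 5 months it read 16.8, 17.1, 15.2, 18.9 and 18.5 CPM against 19.9, 19.9, 13.9, 16.9 and 18.6 CPM, so the separation seen at 3 months was absent. Parp14 at 3 months read 84.5, 85.8 and 77.4 CPM against 68.7, 68.2 and 70.3 CPM, again apart. Its 5-month libraries overlapped, at 76.5 ± 3.88 and 74.3 ± 7.14 CPM (SD, n = 5 each). Beside these, Alb was at 500 CPM in ovariectomy library 2 and 1129 in library 3 at 3 months, and at most 1.93 in the sham libraries. In ovariectomy library 1 Alb was at 1.42 CPM. Without the Alb-rich libraries, which leaves ovariectomy library 1 alone in its group, the members' median log2 fold change at 3 months was -0.17. Beyond that, the part of the Alb-rich libraries in these differences was not tested.

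Of the rest of the panel at 3 months, all but Mx1 overlapped between surgeries. Ifit1 averaged 41.2 ± 9.2 CPM after sham surgery and 41.6 ± 6.04 CPM after ovariectomy (SD, n = 3 each). Ifit3 averaged 93.9 ± 14.9 and 104 ± 9.27 CPM, Isg15 11.2 ± 0.872 and 9.27 ± 2.3 CPM, Irf7 18 ± 3.36 and 17.1 ± 0.433 CPM, and Bst2 73.3 ± 9.97 and 69.1 ± 7.31 CPM. Mx1 read 4.95, 4.46 and 5.37 CPM against 3.92, 4.25 and 3.04 CPM, without overlap.

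At 5 months Ifit1 averaged 43.8 ± 8.5 CPM after sham surgery and 46.3 ± 8.28 CPM after ovariectomy (SD, n = 5 each). Ifit3 averaged 108 ± 16.6 and 122 ± 13.3 CPM, Isg15 11.5 ± 1.56 and 10.2 ± 1.36 CPM, Irf7 19.8 ± 2.88 and 18.8 ± 4.55 CPM, and Bst2 68.6 ± 3.17 and 66.2 ± 4.67 CPM. Mx1 averaged 3.61 ± 1.6 and 2.55 ± 0.866 CPM. Samd9l, which rose with smoke in both sexes without surgery, averaged 113 ± 13.8 and 117 ± 5.88 CPM. All of these overlapped between surgeries.

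Longer smoke, 5 against 3 months averaged over both surgeries, called 0 of 31 members by edgeR or limma and 0 of the 29 to which DESeq2 gave an adjusted p, against 0.13% of all genes by edgeR. By edgeR 2 members were higher and 3 lower at an unadjusted p under 0.05, against 6.73% and 6.69% of all genes. In the surgery by time interaction 0 of 31 were called by edgeR, DESeq2 or limma, edgeR called 0% of all genes, and 1 member was higher at an unadjusted p under 0.05, against 2.25% of all genes.

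**Figure D4:**
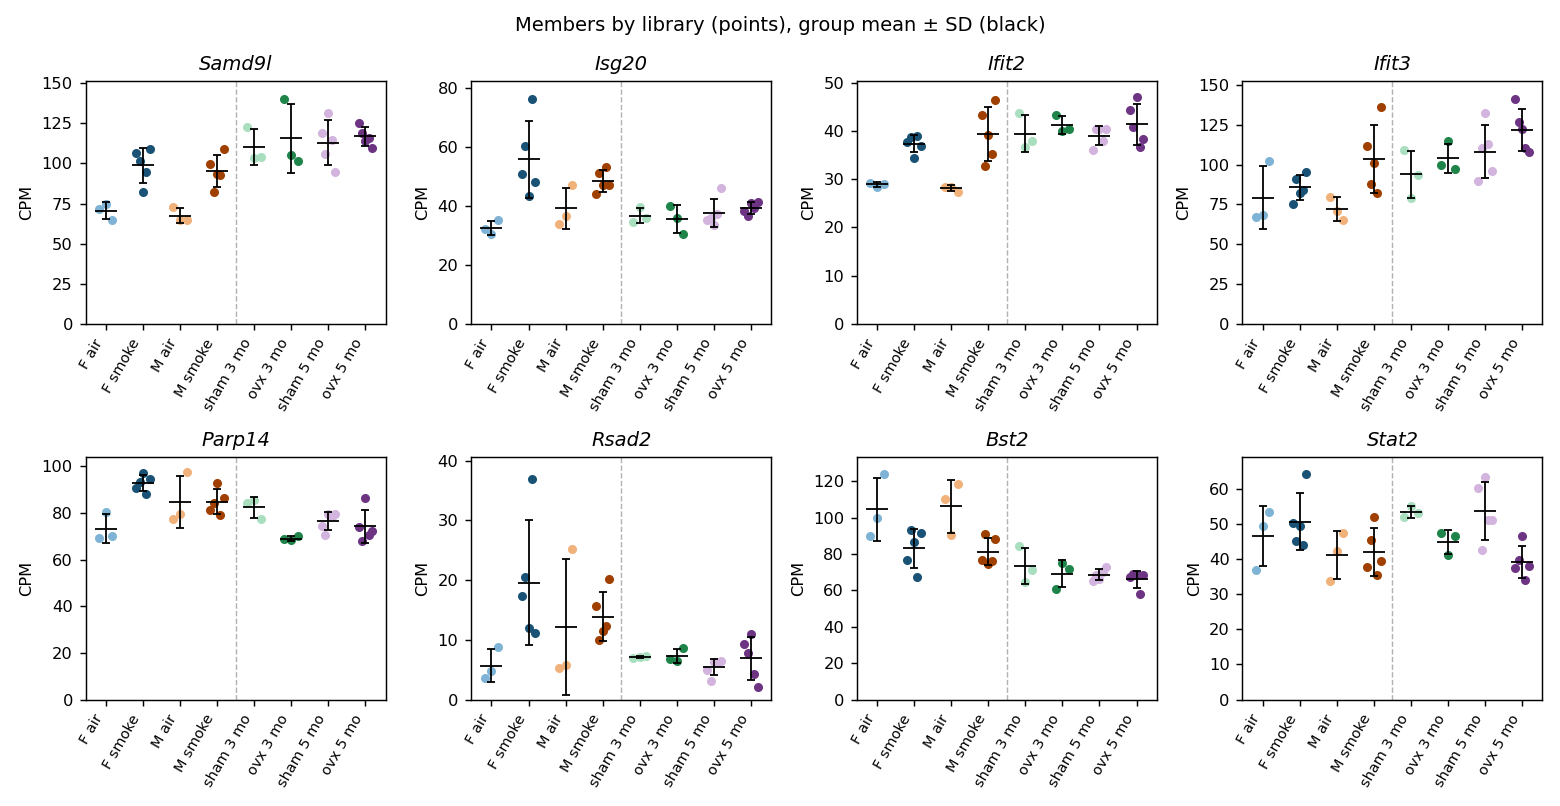
CPM of 8 members in every library (points) with group mean and SD in black; the dashed line separates the experiments, which share no control. Samd9l and Ifit2 are higher in smoke than in air without overlap in both sexes, and Stat2 is lower after ovariectomy.

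Members were further compared by how they varied together inside groups. Each library's log2 CPM was expressed as its deviation from its group mean, and each member was correlated with the mean of the other 30 over 32 libraries, which share their depth and any cell makeup of the tissue. The closest to the rest were Irf9 (Pearson's r = 0.82), Ifit1 (0.77), Irf7 (0.76), Isg15 (0.73), Ifi44 (0.73) and Xaf1 (0.70). The farthest were Ifi35 (0.05), Isg20 (0.10), Ifih1 (0.11), Dtx3l (0.14), Usp18 (0.20) and Eif2ak2 (0.21). Over all 465 pairs the median r was 0.24, 386 pairs were positive and 58 exceeded 0.5.

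The 6 genes that rose with smoke in females were not those that varied most closely together. Isg20, Dtx3l, Eif2ak2 and Samd9l (0.26) lay near the bottom of this order, and Ifit2 (0.41) and Parp14 (0.52) in its middle. A call and r both depend on the spread within groups, so this contrast is not independent of the test. That spread, as SD of log2 CPM, was 0.10 to 0.19 for the 6 genes and 0.16 to 0.40 for the 6 closest members. Ifit1, not called, had a female log2 fold change of 0.48 (SE 0.23, adjusted p = 0.264). None of the 6 closest members was called in any comparison by the test used here, although Ifi44 was called lower with smoke in males when the replicate number was added as a block. The closest single pairs included Ifi44 with Xaf1 (0.78), Irf9 with Irf7 (0.77) and Usp18 with Ifi35 (0.69), and the neighbours Ifit2 and Ifit3 stood at 0.63.

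**Figure D5:**
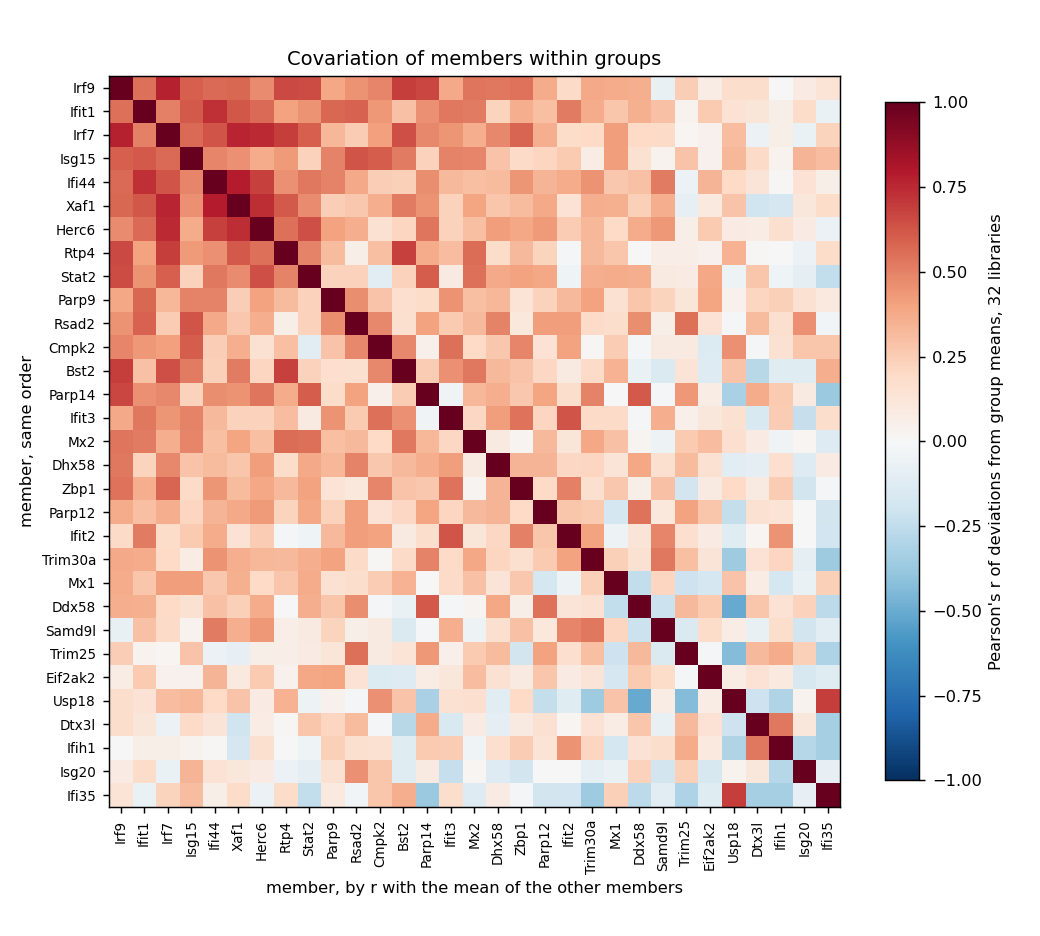
Pearson's r between members, of deviations from group means over 32 libraries, ordered by r with the mean of the other members. A block from Irf9 to Rtp4 at the upper left is mostly red, while Usp18 to Ifi35 at the lower right hold many pale or blue cells.

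Other genes of the pathway were tested in the same fits. With smoke, 4.52% of all genes rose and 3.18% fell in females, and 4.93% rose and 5.33% fell in males. None of 21 interferon ligand genes passed the low-count filter. Of 14 receptor and JAK-STAT genes, 1 fell with smoke in females, the interferon gamma receptor chain Ifngr1 (log2 fold change -0.33, SE 0.09, adjusted p = 0.0237), and 1 in males, the type I receptor chain Ifnar2 (-0.35, SE 0.08, adjusted p = 0.0105). In females 2 of 17 upstream sensing genes rose, the endosomal RNA sensors Tlr7 (0.90, SE 0.25, adjusted p = 0.028) and Tlr8 (0.79, SE 0.24, adjusted p = 0.0476). In males 0 of 17 were called by edgeR.

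Of 57 other genes known as type I interferon-induced, 8 rose and 2 fell in females, against 4.52% and 3.18% of all genes. Their median log2 fold change was 0.13 against -0.01 for all genes. Trim12c, a Trim5-related gene, rose by a log2 fold change of 0.66 (SE 0.11, adjusted p = 0.000666), Apol9b by 1.21 (SE 0.25, adjusted p = 0.00373) and the nuclear body gene Sp100 by 0.37 (SE 0.08, adjusted p = 0.00451). Ifitm2, of the membrane proteins that block virus entry, changed by -0.51 (SE 0.11, adjusted p = 0.00631). In males 2 rose and 3 fell, against 4.93% and 5.33% of all genes, with a median of 0.08 against 0.01. Apol9b (1.06, SE 0.25, adjusted p = 0.00767) and Ifit1bl1, named Gm14446 in the count table (1.30, SE 0.30, adjusted p = 0.00815) rose, and Ly6e (-0.42, SE 0.08, adjusted p = 0.00156) and Ifitm2 (-0.40, SE 0.11, adjusted p = 0.0243) fell. Apol9b may share reads with Apol9a, and Trim12c with Trim12a.

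Of 27 tested genes best known for induction by interferon gamma, 5 rose and 0 fell in females, against 4.52% and 3.18% of all genes. The median was 0.42 against -0.01 for all genes. The genes that rose are named next. They were the guanylate-binding GTPases Gbp2 (0.59, SE 0.10, adjusted p = 0.000881), Gbp2b (matched by its Ensembl ID, and named Gbp5 in the count table), Gbp6 and Gbp7, and Ciita, the regulator of class II antigen presentation (0.66, SE 0.15, adjusted p = 0.00999). In males 4 rose, Ifi47, Tgtp1, Tgtp2 and Gbp8, and Nos2 fell (-1.26, SE 0.27, adjusted p = 0.00362). Of all genes 4.93% rose and 5.33% fell, and the median was 0.21 in this list against 0.01 for all genes. Gbp and Tgtp genes have near-identical copies, so their counts are uncertain.

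Among 9 tested genes of the OAS family, which make the signal that activates RNase L, Oas2 was called in 3 comparisons. In CPM it read 7.32, 7.38 and 8.55 in female air, 15.6, 14.5, 10.6, 8.46 and 16.8 in female smoke, and 5.96, 4.88, 6.95, 5.14 and 6.43 in male smoke. It rose with smoke in females (log2 fold change 0.78, SE 0.21, adjusted p = 0.0247), was higher in female than male smoke (1.17, SE 0.18, adjusted p = 0.00209) and was lower after ovariectomy at 5 months (-0.98, SE 0.20, adjusted p = 0.0195). With smoke in males 0 of the 9 were called, and in the sex by smoke interaction 0 of 9, so a sex difference in the response of Oas2 was not shown. Tyk2, the kinase of the type I receptor that acts with Stat2, fell after ovariectomy at 5 months too (-0.32, SE 0.08, adjusted p = 0.0384). These were the only calls among the 5 tested pathway lists in the sex and surgery comparisons.

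Markers of several cell types moved with smoke beside the members. For reference, 4.52% of all genes rose and 3.18% fell in females, and 4.93% rose and 5.33% fell in males. The sum of 7 neutrophil markers was 41.1 to 60.3 CPM in female air and 65.4 to 112 in female smoke, and 44.4 to 61.4 in male air and 82.5 to 122 in male smoke, with none at 0; 2 of 7 rose in females and 3 of 7 in males. The sum of 5 endothelial markers was lower in smoke, at 2030 to 2550 against 1430 to 1950 CPM in females and 2380 to 3210 against 1460 to 1800 CPM in males. Of these, 4 of 5 fell in females and 5 of 5 in males. All 6 erythroid markers rose in females, from sums of 2280 to 3210 CPM to 6280 to 14800 CPM, and 0 of 6 were called in males by edgeR. Of 9 plasmacytoid dendritic cell markers, 1 fell in females, and in males 1 rose and 1 fell. Ly6c2, a marker of classical monocytes, rose in females (log2 fold change 0.84, SE 0.16, adjusted p = 0.00185) and in males (1.04, SE 0.16, adjusted p = 0.000226). Of 7 classical monocyte markers 1 rose and 1 fell in females, and 2 rose and 2 fell in males. Vcan fell in females (-0.97, SE 0.23, adjusted p = 0.0114) and in males (-0.93, SE 0.23, adjusted p = 0.0121). In males Ccr2 also rose (0.46, SE 0.14, adjusted p = 0.0385) and Fn1 fell (-0.49, SE 0.12, adjusted p = 0.0105). The 7 markers summed to 1030 to 1440 CPM in female air and 845 to 1090 in female smoke. In males the sums were 969 to 1240 CPM in air and 876 to 1030 in smoke. A list of 10 mitochondrial and nuclear-retained transcripts, read as a sign of RNA quality, summed to 17000 to 19100 CPM in female air and 20600 to 25900 in female smoke, and to 16200 to 21800 in male air and 20100 to 26000 in male smoke. Of these 10, mt-Nd4, mt-Co1 and mt-Cytb rose in females, and mt-Nd4, mt-Co1, mt-Co2 and mt-Co3 in males. The part of these cell types and transcripts in the members' differences was not tested.

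At 3 months the sum of 8 T cell markers was 34 to 50.1 CPM after sham surgery and 29.6 to 39.1 CPM after ovariectomy. The neutrophil sums were 99.2 to 297 and 115 to 226 CPM. At 5 months the T cell sums were 23 to 55 and 26.2 to 34.7 CPM, and the neutrophil sums 115 to 283 and 112 to 186 CPM. These sums overlapped between surgeries. All 7 neutrophil markers were lower after ovariectomy at 5 months, 3 of them at an unadjusted p under 0.05. Their median log2 fold change was -0.52 against -0.01 for all genes. All 8 T cell markers were lower at both times, with medians of -0.27 at 3 months and -0.25 at 5 months. At 3 months 49.4% of all genes were lower, and for 5 months the shares of all genes are not given here. The sum of 9 alveolar macrophage markers at 3 months did not overlap, at 549 to 1090 CPM after sham surgery and 506 to 537 CPM after ovariectomy, and 7 of the 9 were lower. All 5 endothelial markers were lower at 3 months, with sums of 843 to 962 and 583 to 947 CPM. By edgeR, 0 markers of these 4 cell types were called between surgeries. Beside the lower Stat2 at 5 months, 1 of the 10 mitochondrial and nuclear-retained transcripts was called, mt-Co1 (log2 fold change 0.36, SE 0.08, adjusted p = 0.0268). Of the 10, 7 were higher and 2 lower at an unadjusted p under 0.05, with a median of 0.28 against -0.01 for all genes. The part of these in the members' differences was not tested.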

How the data were processed

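Raw gene counts and TPM values were deposited by the authors for all 32 libraries. Per the labels' protocols, lung RNA was extracted by Trizol and polyA libraries prepared using a NEBNext Ultra 2 kit. Per the submitters' processing notes, reads were checked with FastQC and the build was GRCm38 (mm10); for the aligner, counting program and strand use, the sources used here state nothing. The deposited TPM values equalled count over gene length, rescaled per library, in 100% of values (relative tolerance 1e-04).

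Groups came from the labels. Counts as deposited were tested with edgeR 4.0.16 in R 4.3.3 (low-count filter by group, TMM factors, robust quasi-likelihood F test), with 1 fit for each experiment and its 4 groups, on 16361 and 16874 genes. The 9 comparisons were contrasts of these fits. P-values were adjusted by Benjamini-Hochberg over all genes tested, and a gene was called at adjusted p under 0.05. CPM used TMM factors over all libraries, log2 CPM a prior count of 2. Alternatives used DESeq2 1.42.0 and limma 3.58.1 on log2(TPM + 1) and log2(TPM + 0.1), other normalizations and filters, left-out libraries and a replicate block. Scripts were tested on simulated data. Total counts of the libraries limit precision most for Mx1 and Mx2, with 10 to 92 counts a library.

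The rule for the members uses no measured value, but the members and gene lists were chosen with earlier results of these data known. Members are named by role; a panel (Ifit1, Ifit3, Isg15, Mx1, Irf7, Stat2, Usp18, Bst2) and every called member are given with values, and of the other lists up to 4 called genes by smallest p. Beyond that rule, Rsad2, Parp14, Mx1 and Usp18 libraries in single comparisons, Gbp7, Gbp8, Apol9b and Oas2 were singled out after their values were seen. No pair of replicates looked like 1 library deposited more than once. A second promoter motif that had been planned is not reported here.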

Additional observations from a re-analysis of the deposited data

Results flagged for a closer look

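In 8 of 124 sets of 5 libraries (31 members in 4 groups) the highest or lowest library stood apart from the rest by Dixon's 95% criterion (gap over range above 0.71), and chance alone would give about 6.2. Female smoke library 5 was high for Irf7, at 35.31 CPM, and for Xaf1, at 33.46 CPM. Male smoke library 5 was high for Ifit1, at 57.28 CPM, and for Isg15, at 18.03 CPM. Male smoke library 1 was low for Rtp4, at 13.57 CPM, and male smoke library 2 was low for Zbp1, at 5.817 CPM. Trim25 was high in female smoke library 2, at 125.6 CPM, and Bst2 was low in ovariectomy 5 months library 4, at 57.95 CPM. Of these genes only Bst2 in males was called in a comparison, and not in the group where it stood apart.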

How the results depend on the processing

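Members called for smoke in females numbered 6, and 3 by limma on log2(TPM + 1) and 3 on log2(TPM + 0.1); in males 4 became 2 under each and 2 without the Alb-rich libraries. Under the other alternatives females had 4 to 8 and males 3 or 4. Leaving out 1 library gave 2 to 6 in females, 2 to 4 in males and 0 to 1 for ovariectomy at 5 months, where Stat2 stayed called in all 10 alternatives. The other 6 comparisons called 0 members under the alternatives and left-out libraries run; without Alb-rich libraries, ovariectomy at 3 months is 1 library, assumed to vary like the other groups. With all 32 libraries in 1 fit, Bst2 and Rsad2 were also called in females (adjusted p = 0.046 and 0.0298). DESeq2 called Rsad2 in females as well (adjusted p = 0.0149), and over the alternatives its adjusted p reached 0.203. With the replicate number as a block the calls were 5 in females (Ifit2 lost). In males they were 3 (Ifit3 and Bst2 lost, Ifi44 added as a fall), and Stat2 remained called. Correlations of libraries with equal numbers ran from 0.047 to 0.094 in females and from -0.276 to 0.136 between 5-month surgeries. Between 3-month surgeries they ran from 0.031 to 0.038. The best match was the library's own number for 3 of 3 libraries in females and 3 of 3 between 3-month surgeries. In males it was for 1 of 3, and between 5-month surgeries for 0 of 5. With so few libraries, whether the numbers pair them is not settled. Among uncalled values near 0, signs turned. Parp14 in males was -0.0053 with RLE factors, -0.0047 without filter, -0.0052 by DESeq2, -0.0188 in the joint fit, -0.0262 and -0.0268 by limma and -0.0922 without Alb-rich libraries. The Samd9l interaction was 0.0126, 0.003, 0.0127, 0.0103, 0.0722, 0.0742 and 8e-04 in that order. Dtx3l in males was 0.0188 with the block, and Rsad2 in males -0.1947 without Alb-rich libraries. Leaving out 1 library gave -0.0921 to 0.112 for Parp14, -0.1929 to 0.1442 for Dtx3l and -0.1927 to 1.313 for Rsad2 in males, and -0.0374 to 0.2197 for Bst2 and -0.0569 to 0.0566 for Samd9l in the interaction; the cause was not tested. Calls over all genes moved as well: 1259 for smoke in females became 490 without female air library 3, 789 and 788 by limma; 1678 in males became 992 and 991 by limma and 962 without male air library 3; 230 for ovariectomy at 5 months became 39 without sham library 1, 111 without Alb-rich libraries and 602 by DESeq2. DESeq2 called 93 against 0 for ovariectomy at 3 months and 482 against 22 for time.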
